A study of Mus musculus with 40 samples.

Results

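Expression of 10 genes of the BCL2 family was followed in mpkCCD cells labelled as knockouts of CREB family transcription factors. The genes were taken by symbol from a table of 55414 genes: the survival genes Bcl2, Bcl2l1 and Mcl1, the pore-forming effectors Bax and Bak1, and the BH3-only genes Bcl2l11, Bbc3, Pmaip1, Bid and Bad. Each symbol matched 1 row, and all 10 passed the filter on low values in every comparison. None of the 10 was called changed in any knockout when set against control clones of the same run of libraries. Bax was lower in every ATF1/CREB1-KO library and in every ATF1/CREB1/CREM-KO library than in any of their own control clones, with log2 differences of -0.54 and -0.31 that did not pass the test. Of all genes tested, 12.4% and 20.2% were lower without overlap in the same comparisons.

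The BCL2 family controls whether mitochondria release cytochrome c, the step that commits a cell to the intrinsic form of apoptosis. The survival proteins BCL2, BCL-XL (the product of Bcl2l1) and MCL1 hold the effectors BAX and BAK in check. The BH3-only proteins report stress to this balance, either by binding the survival proteins or by activating the effectors directly. CREB1, ATF1 and CREM are related factors that bind the cAMP response element and are switched on by phosphorylation, for example by protein kinase A downstream of the vasopressin V2 receptor in collecting duct principal cells. Bcl2 and Mcl1 are known as CREB targets from other cell types.

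The cells were mpkCCD, an immortalized line of mouse collecting duct cells, polarized on Transwell supports. Every group, controls included, received 0.1 nM dDAVP, a synthetic agonist of the V2 receptor, for 72 hours in a simple medium with dexamethasone, selenite and transferrin. The 22 libraries came from 11 unmodified control clones (genotype WT), 5 samples labelled ATF1-KO, 3 labelled ATF1/CREB1-KO (the double knockout) and 3 labelled ATF1/CREB1/CREM-KO (the triple knockout), and another 18 samples of a rescue experiment were not analysed here. The labels do not say whether the samples of a knockout are separate clones, so p-values measure the spread between these samples only. Library numbers fall into 3 consecutive runs, which the labels do not call batches: control clones 1 to 5 with ATF1-KO (run 1), control clones 6 to 8 with ATF1/CREB1-KO (run 2) and control clones 9 to 11 with ATF1/CREB1/CREM-KO (run 3). Each knockout was compared with the control clones of its own run.

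Promoter sequences are shown for the pair of members known as CREB targets, for Bax, the member with the most regular difference, and for Bmf, a BH3-only gene outside the 10 that fell in the triple knockout. The stretches are the 250 bases before the RefSeq transcription start on GRCm38.p6, written 5′ to 3′ on the strand of the gene. Bcl2 lies at chr1:106714291-106714540 (minus strand), Mcl1 at chr3:95658471-95658720 (plus strand), Bax at chr7:45466899-45467148 (minus strand) and the third start of Bmf at chr2:118549687-118549936 (minus strand). Capitals mark the short form of the cAMP response element, TGACG, or CGTCA where it lies on the opposite strand.
Bcl2: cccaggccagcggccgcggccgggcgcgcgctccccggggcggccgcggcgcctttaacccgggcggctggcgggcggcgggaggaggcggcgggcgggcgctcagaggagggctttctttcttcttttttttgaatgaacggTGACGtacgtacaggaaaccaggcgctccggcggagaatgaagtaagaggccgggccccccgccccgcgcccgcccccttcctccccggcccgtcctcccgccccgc
Mcl1: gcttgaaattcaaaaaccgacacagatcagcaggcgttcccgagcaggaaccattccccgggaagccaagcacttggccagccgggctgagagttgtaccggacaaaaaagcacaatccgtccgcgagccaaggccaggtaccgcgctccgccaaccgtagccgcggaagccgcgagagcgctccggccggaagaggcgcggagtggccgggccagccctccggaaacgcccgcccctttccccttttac
Bax: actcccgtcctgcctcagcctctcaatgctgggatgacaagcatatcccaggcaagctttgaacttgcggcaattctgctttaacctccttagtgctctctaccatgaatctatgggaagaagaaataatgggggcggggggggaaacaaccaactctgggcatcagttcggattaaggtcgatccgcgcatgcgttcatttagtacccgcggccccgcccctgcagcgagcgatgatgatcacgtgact
Bmf: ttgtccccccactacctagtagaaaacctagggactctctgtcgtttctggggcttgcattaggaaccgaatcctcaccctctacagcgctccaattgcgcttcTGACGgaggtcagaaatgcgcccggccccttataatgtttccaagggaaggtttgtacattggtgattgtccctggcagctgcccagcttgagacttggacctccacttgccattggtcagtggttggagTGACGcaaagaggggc

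Entries were found for 9 of the 10 members, with 15 start sites between them. The full element TGACGTCA, which reads the same on both strands and contains the short form in either direction, was in none of these 15 stretches and in 1.55% of 32851 mouse promoters of the same length. The short form was in 2 of these 15 stretches, beginning 107 bases before the start of Bcl2 and 55 bases before the first start of Bbc3. It was in 17.8% of the 32851 promoters. Mcl1 and Bax did not hold it in this window. The third start of Bmf held it at 2 places, 146 and 16 bases before the start, and its other 2 starts did not hold it. These matches describe letters only.

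Some properties of the libraries bear on all members. Genes for ribosomal proteins took 7.05% to 15.1% of all TPM in run 2 and 2.61% to 4.03% in runs 1 and 3. The share of mitochondrially encoded transcripts ranged from 2.08% to 4.31% in run 2 and from 0.892% to 2.63% in the other runs. Of the targeted transcripts, Atf1 and Creb1 were lowered in part by group mean. Atf1 was at 63.0%, 77.8% and 80.8% of its own control mean in the single, double and triple knockout. Creb1 was at 61.0% and 49.6% in the double and triple knockout. In ATF1-KO, Atf1 ranged from 17.5 to 37.8 TPM against 37.8 to 49.0 TPM in control clones. It overlapped the control clones in the double knockout (15.1 to 23.7 against 23.3 to 26.2 TPM). It also did in the triple knockout (23.7 to 40.8 against 39.8 to 40.5 TPM). Crem was at 133%, 253% and 135% in the single, double and triple knockout, so it was also higher in the groups whose labels do not name it. Protein was not measured here, so these transcript values do not test the knockouts. Directions given for the triple knockout are those of the libraries labelled ATF1/CREB1/CREM-KO. Aqp2, the vasopressin-regulated water channel, was at 151%, 72.3% and 1.02%. Of 12 principal cell markers, Aqp2, Avpr2, Gata3, Scnn1a, Fxyd4 and Hsd11b2 were at 11.65 TPM or more in every library. Scnn1g and Aqp3 had medians of 12.41 and 5.775 TPM, with lowest values of 0.99 and 0.63 TPM. Scnn1b and Aqp4 had medians of 0.495 and 0.375 TPM, and Aqp4 was at 0 in 4 libraries. Elf5 and Kcnj1 stayed at or below 0.53 TPM. The 27 markers of other renal, stromal and immune cells had medians of at most 0.22 TPM apart from Atp6v1b1, Lrp2 and Cd68, at 34.1, 7.29 and 6.3 TPM. Single libraries reached 4.4 TPM for Slc12a3 and 3.54 TPM for Ptprc. The summed distal convoluted tubule markers (Slc12a3 and Pvalb, the latter at 0 throughout) were at 1.24 to 4.4 TPM in the triple knockout and 0.04 to 0.14 TPM in its control clones, and their part in the results was not tested. In bulk RNA, fewer cells of a type and less RNA per cell cannot be told apart.

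TPM, a measure of transcript abundance, corrects for transcript length and scales each library to the same total, so levels can be ordered between genes. In the control clones of run 1, Bad, Bax and Bcl2l1 had the highest levels, at 192 ± 25.8, 189 ± 28.9 and 185 ± 15.6 TPM (mean ± SD, n = 5), and their ranges overlapped. Mcl1 followed at 112 ± 22.1 TPM and Bid at 65.1 ± 9.54 TPM, each apart from its neighbours. Pmaip1, Bcl2l11 and Bbc3 overlapped at 29.5 ± 8.45, 24.5 ± 4.30 and 17.5 ± 7.80 TPM. Bcl2 was at 7.51 ± 0.929 TPM, overlapping the lowest Bbc3 library, and Bak1 was lowest at 1.93 ± 0.306 TPM. Among the 3 survival members, Bcl2l1 and Mcl1 were thus far above Bcl2, and of the pair Bax and Bak1, Bax was far above Bak1.

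Run 3 control clones gave nearly the same order. Bcl2l1 led at 214 ± 3.41 TPM (n = 3), above Bax at 168 ± 13.2 and Bad at 160 ± 2.69 TPM, which overlapped. Mcl1 at 116 ± 18.3 and Bid at 52.7 ± 3.21 TPM stood apart. Pmaip1 (32.7 ± 3.57 TPM) overlapped Bcl2l11 (30.0 ± 1.79 TPM), Bbc3 (12.3 ± 3.65 TPM) overlapped Bcl2 (7.73 ± 1.17 TPM), and Bak1 was last at 1.41 ± 0.607 TPM.

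The control clones of run 2 differed from both. Bax stood at 494 ± 25.9 TPM, Bad at 334 ± 4.57 and Bak1 at 6.82 ± 0.713 TPM (n = 3), higher than in the other 8 control libraries by 1.45, 0.90 and 1.53 on the log2 scale. The other 7 members were lower by the same measure, with differences from -0.97 for Bcl2 to -2.55 for Pmaip1. Bcl2l1 came after Bax and Bad at 43.3 ± 1.70 TPM, ahead of Mcl1 at 29.0 ± 4.73 and Bid at 11.3 ± 1.74 TPM. Bcl2l11 (7.28 ± 0.724 TPM) overlapped Bak1, and Pmaip1 (4.3 ± 0.605 TPM) overlapped Bcl2 (3.38 ± 0.370 TPM). The median protein-coding gene was also lower in run 2 control clones, with log2 differences from -1.25 to -1.71 across 4 classes of transcript length, so Bax, Bad and Bak1 stood apart from most genes. Each of the 10 differences between these control clones was larger than any knockout difference among the 10 members.

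**Figure D1:**
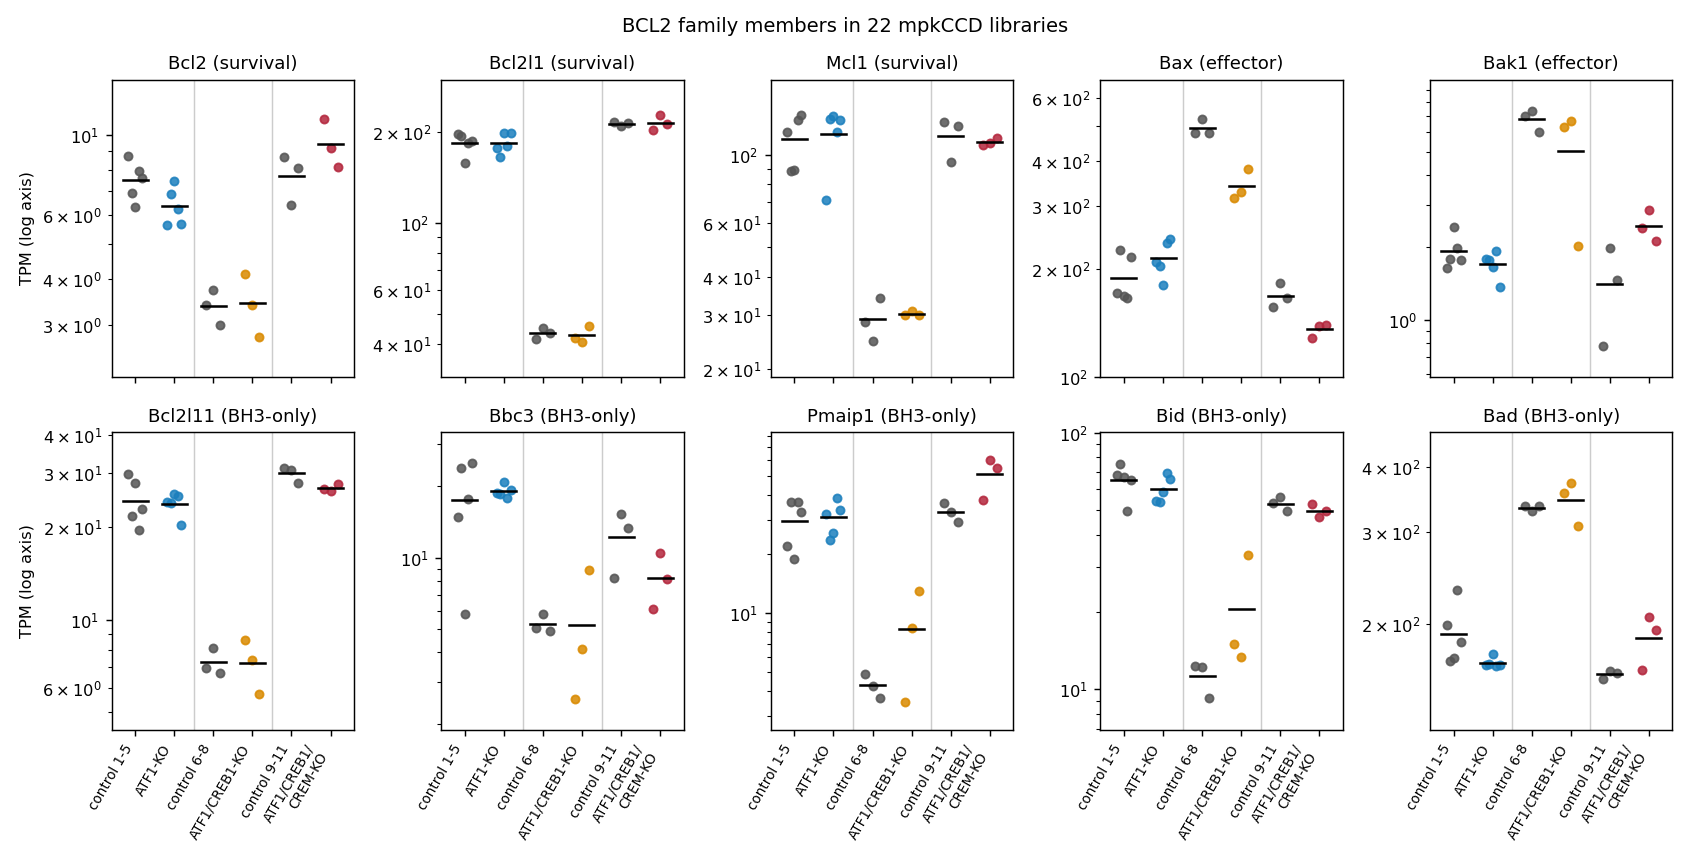
TPM of each of the 10 members on a logarithmic axis in the 22 libraries, grouped by run (vertical lines), with points for libraries and bars for group means. By group mean, Bax, Bad and Bak1 are highest in run 2 and the other 7 members lowest there.

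The count of members called was 0 of 10 in each comparison by limma with Benjamini-Hochberg adjustment over all genes. The background for these counts was 0% of 13318 genes called for ATF1-KO, 0.0715% of 12579 (9 genes, 0.0318% higher and 0.0397% lower) for ATF1/CREB1-KO and 9.17% of 13258 (1216 genes, 3.91% higher and 5.26% lower) for ATF1/CREB1/CREM-KO. In the triple knockout, 57.4% of the called genes were lower, or 46.7% after quantile normalization. At an unadjusted p under 0.05, the counts were 0 members against 7.61% of all genes for ATF1-KO, 1 member (Bax) against 9.53% for ATF1/CREB1-KO and 2 members (Bax and Pmaip1) against 27.0% for ATF1/CREB1/CREM-KO. The members' median log2 difference was -0.011, -0.0028 and -0.025 in the 3 comparisons, beside -0.0035, -0.030 and -0.045 over all genes tested.

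Bcl2, the founding survival gene, did not pass the test in any knockout. The ATF1-KO libraries held 5.65, 6.87, 7.46, 6.24 and 5.68 TPM and their control clones 8.72, 6.9, 6.33, 7.97 and 7.63 TPM. The knockout values lay toward the low end but overlapped the control values, and the difference was -0.20 ± 0.12 (log2, SE; limma adjusted p = 0.704). In ATF1/CREB1-KO, 4.15, 3.4 and 2.77 TPM stood against 3.4, 3.74 and 3 TPM (0.011 ± 0.20, adjusted p = 0.987). In ATF1/CREB1/CREM-KO, 11.0, 9.2 and 8.15 TPM stood against 8.68, 6.42 and 8.08 TPM (0.26 ± 0.17, adjusted p = 0.369). The triple knockout thus had the highest single library of this CREB target, and its 95% interval ran from -0.15 to 0.67.

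Bcl2l1, which encodes BCL-XL, gave the narrowest intervals of the family in the single and triple knockout. The ATF1-KO libraries had 178, 165, 199, 181 and 198 TPM and their control clones 198, 195, 159, 185 and 187 TPM. In ATF1/CREB1-KO the values were 41.7, 40.6 and 45.6 TPM against 41.5, 44.9 and 43.5 TPM. In ATF1/CREB1/CREM-KO they were 203, 228 and 213 TPM against 216, 210 and 215 TPM. The groups overlapped in all 3 comparisons, and the log2 differences were -0.0014 ± 0.078, -0.024 ± 0.18 and 0.0052 ± 0.076, with limma adjusted p = 0.996, 0.972 and 0.973. For the triple knockout the 95% interval was -0.17 to 0.19.

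Mcl1, a short-lived survival protein and the other member known as a CREB target, overlapped between groups throughout. The ATF1-KO values were 71.4, 130, 133, 119 and 129 TPM against 119, 88.3, 89.2, 130 and 134 TPM. Replicate 1 of the knockout lay below every other run 1 library, and the other 4 were within the control range. The difference was 0.044 ± 0.19 (adjusted p = 0.964). ATF1/CREB1-KO libraries held 29.9, 31.0 and 30 TPM against 28.4, 24.6 and 34.1 TPM (0.071 ± 0.20, adjusted p = 0.913). ATF1/CREB1/CREM-KO libraries held 107, 109 and 114 TPM against 128, 94.5 and 125 TPM (-0.055 ± 0.13, limma adjusted p = 0.815). Its intervals were wider than those of Bcl2l1, at -0.36 to 0.25 in the triple knockout.

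Bax, the effector that moves to mitochondria and forms pores there, was the member with the most regular difference. In run 2, the ATF1/CREB1-KO libraries had 315, 328 and 379 TPM and the control clones 479, 524 and 478 TPM. The groups did not overlap, and the mean was at 69.0% of control (-0.54 ± 0.17, limma p = 0.0157, adjusted p = 0.430). In run 3, the ATF1/CREB1/CREM-KO libraries had 129, 139 and 140 TPM and the control clones 157, 183 and 166 TPM. The groups again did not overlap, at 80.7% of control (-0.31 ± 0.087, limma p = 0.0105, adjusted p = 0.0776). Of all genes, 12.4% in run 2 and 20.2% in run 3 were lower without overlap.

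In ATF1-KO, Bax values of 209, 204, 181, 236 and 242 TPM overlapped control values of 171, 226, 168, 166 and 215 TPM (0.18 ± 0.11, limma adjusted p = 0.722). When all 22 libraries entered 1 fit with run as a covariate, Bax was called lower in ATF1/CREB1-KO (adjusted p = 0.0261), where 4.58% of 13295 genes were called, but not in ATF1/CREB1/CREM-KO (adjusted p = 0.185), where 8.02% were. Ribosomal protein genes made up 13.0%, 12.5% and 7.05% of TPM in the 3 double-knockout libraries and 14.2% to 15.1% in their control clones. Replicate 3 had the ribosomal share nearest to the other runs and, of the 3 libraries, the Bax value farthest from them. All 3 Bax values lay below the run 2 control clones, on the side of the other runs. Measured from the run 2 control mean, 6, 7 and 8 of the 10 members lay on the side of the other runs' control clones in replicates 1, 2 and 3. Mitochondrial transcripts were at 3.20% to 4.31% against 2.08% to 2.33% in run 2 and at 2.06% to 2.63% against 1.21% to 1.42% in run 3. The part of these shares in the Bax values was not tested.

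Bak1, the other effector, was rare and noisy. The ATF1-KO values of 1.37 to 1.94 TPM overlapped the control values of 1.65 to 2.43 TPM (-0.11 ± 0.14, limma adjusted p = 0.868). ATF1/CREB1-KO gave 6.31, 6.68 and 2.02 TPM against 7.05, 7.39 and 6.02 TPM, a difference of -0.49 ± 0.37 that rested on replicate 3 (adjusted p = 0.707), and without that replicate it was -0.058. ATF1/CREB1/CREM-KO gave 2.4, 2.85 and 2.12 TPM against 0.78, 1.99 and 1.46 TPM. These groups did not overlap, as 14.5% of genes did not in that direction, and the difference was 0.55 ± 0.26 (adjusted p = 0.230). Bak1 shares 437 exonic bases with Ggnbp1 on the opposite strand, and the library kit does not mark strand, so reads from the shared bases cannot be told apart. That Ggnbp1 entry ranged from 3.41 to 40.2 TPM over the libraries, and another entry sharing 177 bases from 0 to 0.6 TPM. The part of such reads in the Bak1 values was not tested.

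Among BH3-only genes, Bcl2l11, which encodes BIM, varied little. ATF1-KO libraries ranged from 20.4 to 25.6 TPM and control clones from 19.7 to 29.9 TPM (-0.021 ± 0.12, limma adjusted p = 0.971). ATF1/CREB1-KO values of 5.74 to 8.57 TPM overlapped control values of 6.74 to 8.1 TPM (-0.017 ± 0.20, adjusted p = 0.982). In the triple knockout, 26.7, 26.3 and 27.8 TPM lay just under 31.2, 30.9 and 28.0 TPM, as 20.2% of genes were lower without overlap. That gap of less than 1 TPM between the nearest libraries gave -0.15 ± 0.093 (limma adjusted p = 0.341).

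Bbc3, which encodes the p53-induced protein PUMA, had the widest spread relative to its mean among run 1 control clones, from 5.8 to 25.1 TPM. The 5 ATF1-KO libraries sat inside that range at 17.8 to 20.9 TPM (0.26 ± 0.31, limma adjusted p = 0.852). In ATF1/CREB1-KO, 2.55, 4.13 and 8.93 TPM spanned the control values of 4.93 to 5.8 TPM (-0.14 ± 0.36, adjusted p = 0.905). In ATF1/CREB1/CREM-KO, 6.12, 10.5 and 8.15 TPM overlapped 8.22, 15.3 and 13.3 TPM (-0.51 ± 0.27, limma adjusted p = 0.273).

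Pmaip1 encodes NOXA, a BH3-only protein that binds MCL1. ATF1-KO libraries ranged from 23.7 to 38.7 TPM and control clones from 19.0 to 37.0 TPM (0.084 ± 0.20, limma adjusted p = 0.926). ATF1/CREB1-KO gave 3.54, 8.44 and 13.1 TPM against 4.91, 4.29 and 3.7 TPM (0.68 ± 0.39, adjusted p = 0.626). ATF1/CREB1/CREM-KO gave 37.7, 60.4 and 55.1 TPM against 36.3, 32.8 and 29.1 TPM. All 3 triple-knockout libraries were above all 3 control clones, as 14.5% of all genes were in this comparison. Their mean was at 156% of control (0.60 ± 0.19, limma p = 0.0153, adjusted p = 0.0955). Replicate 1 was the lowest of the 3, and without it the difference was 0.80 (limma adjusted p = 0.0041), with 3317 genes called in place of 1216.

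Bid, which links death receptors to mitochondria once cut by caspase-8, overlapped in run 1, at 53.6 to 69.5 TPM in ATF1-KO against 49.4 to 75.2 TPM (-0.10 ± 0.12, limma adjusted p = 0.843). In ATF1/CREB1-KO, 15.0, 13.4 and 33.2 TPM were all above 12.3, 12.2 and 9.26 TPM, as 6.67% of genes were without overlap in that direction. Replicate 3 held most of that difference of 0.71 ± 0.35 (limma adjusted p = 0.582), and it was also the library whose ribosomal share, 7.05%, was nearest the other runs. The part of that share in the Bid value was not tested. Without replicate 3 the difference was 0.32. In the triple knockout, 52.6, 47.0 and 49.4 TPM overlapped 52.9, 55.8 and 49.4 TPM (-0.084 ± 0.091, limma adjusted p = 0.597). Bid shares 628 exonic bases with Bcl2l13 on the opposite strand.

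Bad encodes a BH3-only protein that is held inactive by phosphorylation, including by protein kinase A. The ATF1-KO libraries were tightly grouped at 166 to 175 TPM, overlapping the low end of control clones at 170 to 233 TPM (-0.18 ± 0.084, limma adjusted p = 0.684). ATF1/CREB1-KO gave 357, 373 and 308 TPM on either side of 337, 329 and 336 TPM (0.044 ± 0.17, adjusted p = 0.939). ATF1/CREB1/CREM-KO gave 163, 206 and 194 TPM, above 157, 162 and 161 TPM, with replicate 1 only just so. Of all genes, 14.5% were higher without overlap in this comparison. The difference was 0.22 ± 0.10 (limma adjusted p = 0.213), or 0.32 without replicate 1 (adjusted p = 0.0135). Leaving out that replicate gave 3317 genes called in place of 1216. Bad shares 524 exonic bases with Gpr137 on the opposite strand.

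Counted over the family, groups without overlap were found for 0 members in ATF1-KO (1.30% of all genes, 0.563% higher and 0.736% lower), for 2 in ATF1/CREB1-KO (19.0% of all genes) and for 5 in ATF1/CREB1/CREM-KO (34.6% of all genes). The 2 were Bax lower and Bid higher. The 5 were Bax and Bcl2l11 lower and Bak1, Pmaip1 and Bad higher. In the triple knockout, the separations went in opposite directions within the effectors and within the BH3-only genes.

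**Figure D2:**
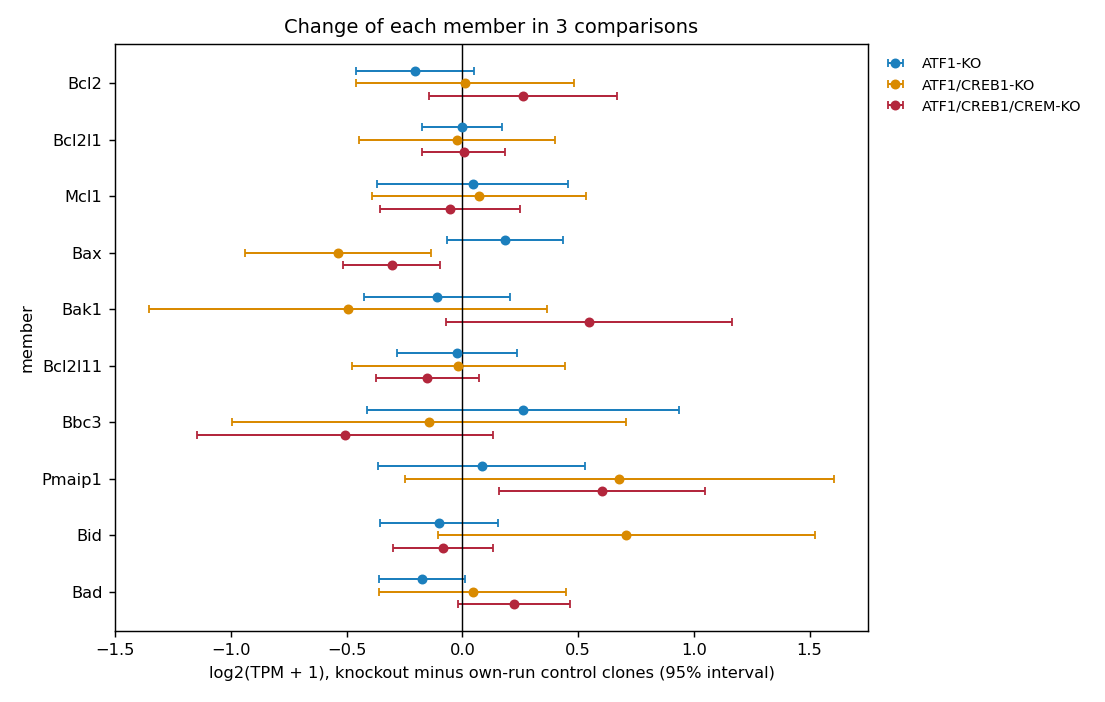
Difference of each member between knockout and own-run control clones on the log2(TPM + 1) scale, with 95% intervals from limma, in 3 colours for the 3 comparisons. The intervals of Bax in the double and triple knockout and of Pmaip1 in the triple knockout exclude 0 before adjustment over all genes; the others include it.

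Differences between comparisons were tested for each member in 1 fit over all 22 libraries, giving 30 contrasts adjusted over all genes. Bax was the only member called: its change in ATF1/CREB1-KO was below that in ATF1-KO (log2 difference -0.72 ± 0.17, limma adjusted p = 0.0372), in a contrast where 1.46% of genes were called. This call was lost in 12 of 22 sets with 1 library left out: without control replicates 1, 3, 4, 6, 7, 8 or 11, ATF1-KO replicates 1, 2, 4 or 5, or ATF1/CREB1-KO replicate 1 (adjusted p up to 0.118). It was also lost without the filter on low values (adjusted p = 0.0640) and under quantile normalization (adjusted p = 0.0998). The triple knockout against ATF1-KO gave -0.49 ± 0.17 for Bax (adjusted p = 0.138), where 3.57% of genes were called. Bak1 had the widest gap between the double and triple knockout, 1.04 ± 0.37 (limma adjusted p = 0.422), where 0.188% of genes were called. For Bcl2 the triple minus single difference was 0.47 ± 0.20 (limma adjusted p = 0.255) and for Mcl1 -0.10 ± 0.26 (adjusted p = 0.920).

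Sums over each role are given as a description with no test. In run 1, survival transcripts summed to 304 ± 32.1 TPM in control clones and 307 ± 33.6 TPM in ATF1-KO, and effectors to 191 ± 28.8 and 216 ± 24.8 TPM. In run 3, survival sums were 337 ± 22.8 and 334 ± 12.6 TPM, and effector sums 170 ± 13.8 and 138 ± 6.17 TPM. In run 2, survival sums were 75.7 ± 4.18 and 76.4 ± 1.76 TPM beside effector sums of 501 ± 26.5 and 346 ± 31.2 TPM.

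The survival sum per effector sum was 1.62 ± 0.278 in run 1 control clones and 1.44 ± 0.256 in ATF1-KO, with overlapping libraries. It was 0.152 ± 0.0142 in run 2 control clones and 0.222 ± 0.0151 in ATF1/CREB1-KO, and 2.00 ± 0.287 in run 3 control clones and 2.42 ± 0.0505 in ATF1/CREB1/CREM-KO. The double and triple knockout libraries were all above their own control clones in this ratio, with survival sums nearly level and effector sums lower. The effector sum was almost all Bax, at 341 of 346 TPM in ATF1/CREB1-KO and 136 of 138 TPM in ATF1/CREB1/CREM-KO. The ratio thus mostly repeats the Bax differences, which were not called against own-run control clones. Of all genes, 12.4% and 20.2% were lower without overlap in these comparisons. The related gene Bok is not in the sum. BH3-only sums were 328 ± 23.1 and 302 ± 11.6 TPM in run 1, 362 ± 3.82 and 387 ± 18.5 TPM in run 2 and 288 ± 8.16 and 324 ± 33.4 TPM in run 3, mostly Bad.

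**Figure D3:**
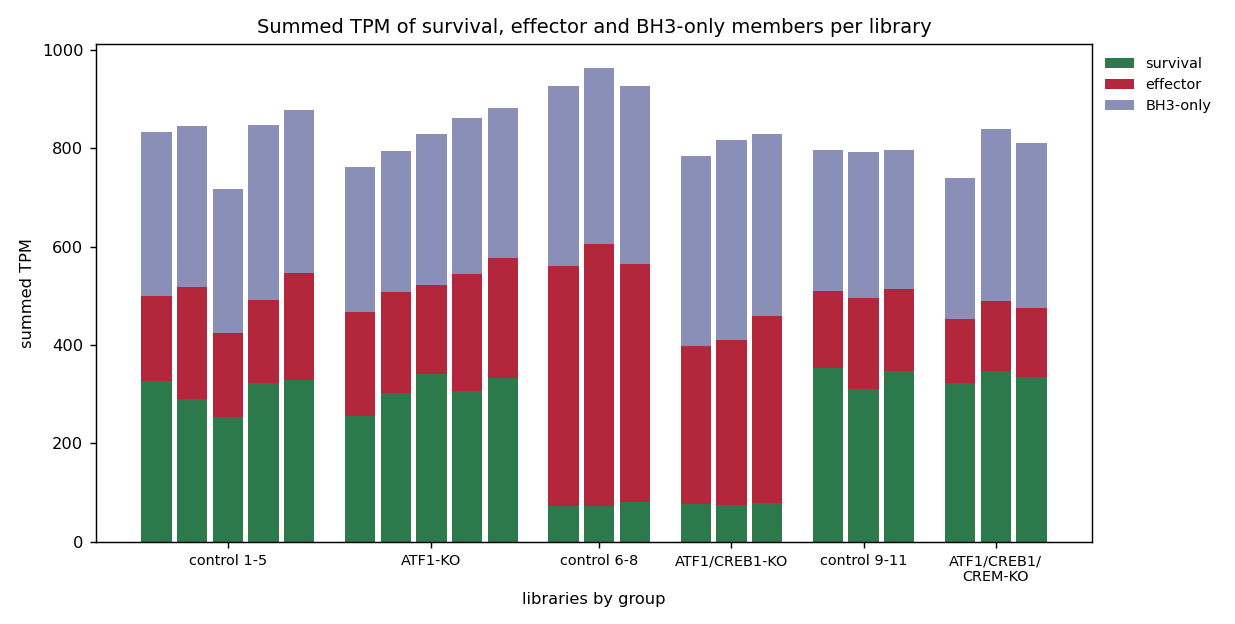
Stacked bars of summed TPM of survival, effector and BH3-only members, 1 bar per library in the order of the groups. Survival transcripts form 73.3 to 80.6 TPM of each run 2 control library and 254 to 353 TPM of each control library of the other runs.

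Other genes of the death pathway were read from 5 lists. No gene of these lists was called in ATF1-KO or ATF1/CREB1-KO by limma against own-run control clones. The symbol Ddit3 matched 2 rows, which were counted apart. At an unadjusted p under 0.05, 3 of the 52 tested rows of these lists stood in ATF1-KO (5.77%, beside 7.61% of all genes) and 4 of 52 in ATF1/CREB1-KO (7.69%, beside 9.53%). Of the 3 in ATF1-KO, 1 was a Ddit3 row at 8.05 ± 8.56 TPM (SD) against 0 TPM in control clones. The limma fit of all libraries with run as a term called 3 of the 52 lower in ATF1/CREB1-KO, where it called 4.58% of all genes. They were the cell cycle factor gene E2f1 (-0.62, adjusted p = 0.0079), the death receptor gene Tnfrsf10b (-1.06, adjusted p = 0.0212) and Apaf1, which encodes the core of the apoptosome (-0.54, adjusted p = 0.0322). In ATF1/CREB1/CREM-KO, 3.91% of all genes were called higher and 5.26% lower. The list of other BCL2 family genes had 1 member called higher and 2 called lower among 9 tested of 15, with a median of -0.28 (log2) beside -0.045 over all genes. Of 11 rows of p53 and stress regulators 1 was lower, of 8 genes for turnover of MCL1 and its relatives 1 was lower, and of 16 apoptosome, caspase and inhibitor genes and 9 death receptor genes 0 were called. At an unadjusted p under 0.05, the counts were 5 of 9 other BCL2 family genes, 3 of 11 rows of p53 and stress regulators, 1 of 8 turnover genes, 4 of 16 apoptosome genes and 3 of 9 death receptor genes. In all, these were 16 of 53 rows (30.2%, beside 27.0% of all genes). Endog, a mitochondrial nuclease gene of the apoptosome list, was called lower in the fit with run as a term (-0.58, limma adjusted p = 0.0152) and not with own-run control clones (adjusted p = 0.0651). That fit called 4 list genes in ATF1/CREB1/CREM-KO, beside 8.02% of all genes.

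Bmf, a BH3-only gene whose protein is tethered to the motor-associated light chain DYNLL2, fell in the triple knockout. Its libraries held 5.56, 4.1 and 5.14 TPM against 17.2, 15.8 and 14.4 TPM in control clones, with a wide gap between the groups. The log2 difference was -1.50 ± 0.15 (limma adjusted p = 0.0038), it passed with each of the 6 libraries left out in turn (adjusted p up to 0.0365), and it did not pass against all 11 control clones (-1.07, adjusted p = 0.0710). ATF1/CREB1-KO libraries held 12.5, 4.28 and 3.95 TPM against 9.67, 9.95 and 10.3 TPM, so 2 of 3 lay below the control clones (-0.63 ± 0.38, adjusted p = 0.639). ATF1-KO libraries, at 8 to 15.3 TPM, overlapped control clones at 7.5 to 13.2 TPM (0.11 ± 0.19, adjusted p = 0.901). The change in the triple knockout was below that in ATF1-KO (-1.61 ± 0.37, limma adjusted p = 0.0177) and was not called against the double knockout (-0.87 ± 0.41, adjusted p = 0.590).

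Bik, a BH3-only gene whose product sits mainly at the endoplasmic reticulum, also fell in the triple knockout, at 0.45, 3.38 and 4.51 TPM against 15.0, 10.2 and 17.5 TPM (-2.19 ± 0.50, limma adjusted p = 0.0442). The groups were far apart, and the call was kept in 1 of 6 sets with a library left out (adjusted p up to 0.152). Bnip3, a hypoxia-induced mitophagy receptor, rose to 175, 200 and 169 TPM against 115, 130 and 89.4 TPM (0.71 ± 0.15, adjusted p = 0.0342), kept in 2 of 6 such sets (adjusted p up to 0.114). Mdm2, the ubiquitin ligase for p53, fell to 56.4, 63.3 and 59.1 TPM against 87.9, 75.6 and 80.6 TPM (-0.44 ± 0.093, limma adjusted p = 0.0354). Ywhaz, a 14-3-3 protein that binds phosphorylated BAD, fell to 227, 258 and 257 TPM against 333, 322 and 308 TPM (-0.38 ± 0.082, limma adjusted p = 0.0390). The calls of Mdm2 and Ywhaz were each kept in 1 of 6 such sets (adjusted p up to 0.139 and 0.152). In the fit of all 22 libraries with run as a term, Bmf and Bik were called (limma adjusted p = 0.0023 and 0.0078) and Bnip3, Mdm2 and Ywhaz were not (0.241, 0.0729 and 0.198). Of 7 settings other than leaving out a library, the call was kept in 6 for Bmf, in 4 each for Bik, Bnip3 and Mdm2, and in 3 for Ywhaz.

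**Figure D4:**
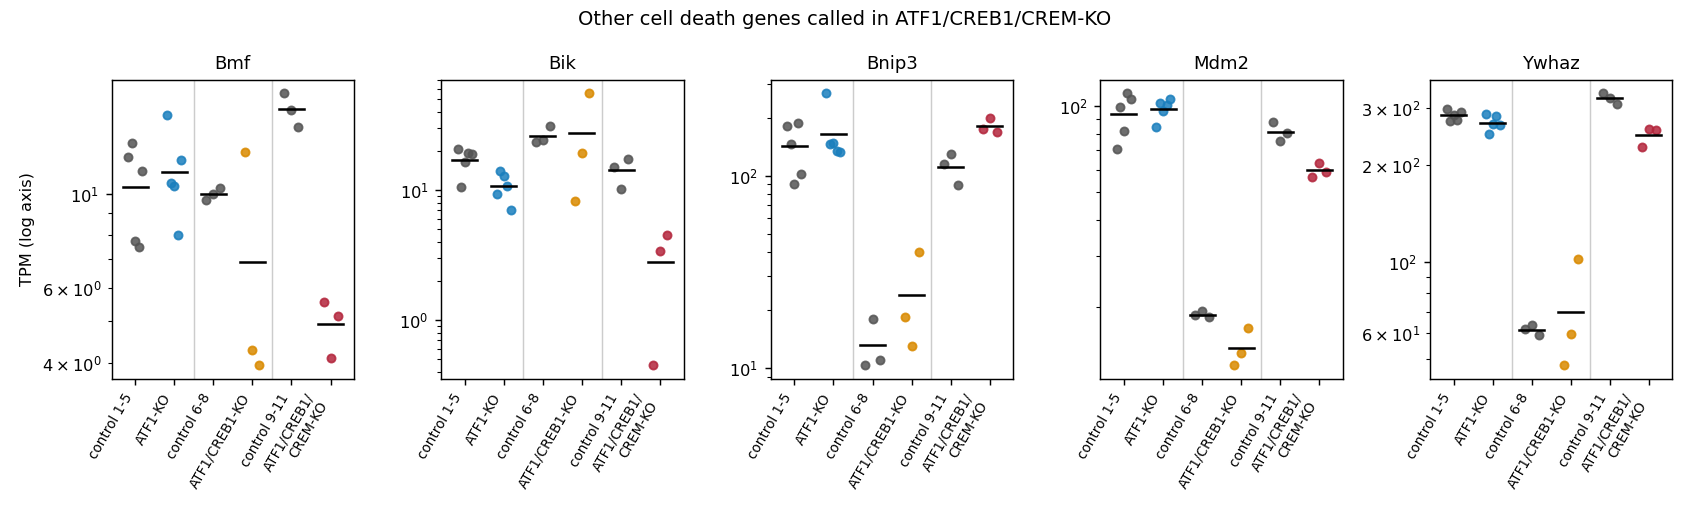
TPM on a logarithmic axis of the 5 listed death-pathway genes called in the triple knockout, in the 22 libraries by group, with points for libraries and bars for means. Bmf and Bik of the triple knockout lie below all their own control clones, and Bnip3 lies above them.

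For the pair of CREB targets, the genes most alike over the 22 libraries were read from deviations from the own-run control mean, as a description across 11795 genes. For Bcl2 these were Gm20559, Ypel3 and Neat1, with Pearson r of 0.818, 0.810 and 0.803. For Mcl1 they were Polr3c, Ufm1 and Cct3, with r of 0.855, 0.815 and 0.810. Bcl2 and Mcl1 had r = 0.213 with each other. Among members, Bcl2 was most like Bad (r = 0.615) and most unlike Bax (r = -0.574). The points share libraries and their composition.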

How the data were processed

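RNA sequencing values of 22 libraries were used. Per the labels' protocols, cDNA was made with the SMARTer V4 Ultra Low kit, tagmented with Nextera XT and sequenced with paired ends. The values deposited by the authors are TPM, in 1 table. STAR and RSEM are named in the submitters' processing notes without a version, and genome build and annotation are not given in the sources used here. TPM does not state depth, so the reads behind each library are unknown and no counting interval is given.

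Tests used limma 3.58.1 in R 4.3.3 (eBayes with trend) on log2(TPM + 1). Genes whose mean over the compared libraries was under 1 TPM were left out, p-values were adjusted by Benjamini-Hochberg across every tested gene, and adjusted values under 0.05 were called. Fold changes on this scale understate those of low genes. Error terms beside log2 values are SE. Differences between comparisons came from 1 fit over all 22 libraries with run as a covariate. Tables were handled in Python 3.11.15, and gene models came from GENCODE M21 (GRCm38). All tests were tried on simulated data with independent normal noise, equal spread in knockout and control, and no differences between runs. That setting does not cover the run differences or unequal spreads of the real libraries.

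All 10 members are named. Of the other lists, called genes are named, at most 6 per comparison, and for Bcl2 and Mcl1 the 3 genes of highest correlation. The members and lists were chosen with earlier results of these data known. Alternatives were other pseudocounts (0.1, 0.5), no filter, median-ratio scaling, quantile normalization, all control clones, run as a covariate, the replicate number as a block, and each library left out.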

Additional observations from a re-analysis of the deposited data

Results flagged for a closer look

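Of 20 groups of 5 libraries checked for a library standing apart, 2 held one, where chance gives about 1 in 20. Mcl1 was at 71.4 TPM in replicate 1 of ATF1-KO, and the nearest of the other 4 libraries was at 119 TPM. Without that library the log2 difference of Mcl1 was 0.21 in place of 0.044. Bad was at 175 TPM in replicate 3 of ATF1-KO, and the other 4 lay between 166 and 167 TPM, so this distance is small beside the spread of the control clones.

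The change of Bax differed between ATF1/CREB1-KO and ATF1-KO by a test of the difference itself (log2 difference -0.72, limma adjusted p = 0.0372). Bax was lower in 3 of 3 double-knockout libraries than in any of their control clones, as 12.4% of all genes were. The single-knockout libraries overlapped their own control clones. With 1 library left out in turn, the call was lost in 12 of 22 sets, and the adjusted p ranged from 0.0103 without ATF1/CREB1-KO replicate 3 to 0.118 without control replicate 7. The shares of ribosomal protein and mitochondrial transcripts moved in the same libraries, and their part was not tested.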

How the results depend on the processing

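Over 440 alternatives for single members, 4 were called and 53 changed sign, and none of those with a changed sign was called. No count of members called moved in ATF1-KO. The number of reads is unknown, so depth sets no stated limit.

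Against all 11 control clones, 1 member was called in ATF1/CREB1-KO (Bcl2l1, -1.58, limma adjusted p = 0.0468), with 4260 genes called there and 137 in ATF1/CREB1/CREM-KO. The following log2 values changed sign in that setting. In ATF1-KO they were -0.15 for Bax, 0.046 for Bcl2, 0.50 for Bcl2l1, 0.34 for Bcl2l11 and 0.64 for Bid. In ATF1/CREB1-KO they were 0.62 for Bak1, 0.52 for Bax, -0.69 for Bcl2, -0.98 for Bid, -1.33 for Mcl1 and -1.18 for Pmaip1. In ATF1/CREB1/CREM-KO they were -0.18 for Bad, -0.063 for Bak1, 0.50 for Bcl2l11, 0.37 for Bid, 0.50 for Mcl1, 0.037 for Mdm2 and 0.35 for Ywhaz. This setting compares across runs whose control clones differ.

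With run as a covariate, 1 member (Bax) and 609 genes were called in ATF1/CREB1-KO. Without the filter on low values, 0 genes were called in ATF1/CREB1-KO and 710 in ATF1/CREB1/CREM-KO, where more genes were tested, and 0 members differed between comparisons. Median-ratio scaling gave 18 genes in ATF1/CREB1-KO and turned Bcl2l1 to 0.0030 in ATF1-KO and 0.0078 in ATF1/CREB1-KO, and Bcl2l11 to 0.014 in ATF1/CREB1-KO. Quantile normalization left 0 members that differed between comparisons and turned Bcl2l1 to 0.00030 in ATF1-KO, and Bad to -0.021 and Bcl2l11 to 0.075 in ATF1/CREB1-KO. The cause was not tested.

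With each library left out in turn, genes called ranged from 0 to 1 in ATF1-KO, from 0 to 60 in ATF1/CREB1-KO and from 185 to 3317 in ATF1/CREB1/CREM-KO. The low and high ends were without ATF1/CREB1-KO replicates 2 and 3, and without control replicate 9 and ATF1/CREB1/CREM-KO replicate 1. Members called ranged from 0 to 2 in ATF1/CREB1/CREM-KO, and members differing between comparisons from 0 to 2 (Bax and Bid without ATF1/CREB1-KO replicate 2). Log2 values that changed sign this way ranged in ATF1-KO from -0.055 to 0.037 for Bcl2l1, -0.093 to 0.052 for Bcl2l11, -0.035 to 0.21 for Mcl1, -0.063 to 0.42 for Bbc3 and -0.057 to 0.18 for Pmaip1. In ATF1/CREB1-KO they ranged from -0.10 to 0.12 for Bcl2, -0.072 to 0.0100 for Bcl2l1, -0.037 to 0.19 for Mcl1, -0.13 to 0.12 for Bcl2l11, -0.55 to 0.19 for Bbc3 and -0.012 to 0.12 for Bad. In ATF1/CREB1/CREM-KO they ranged from -0.040 to 0.044 for Bcl2l1 and -0.19 to 0.022 for Mcl1.

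The replicate block could be fitted for ATF1-KO alone, where control clones and knockout share the numbers 1 to 5: 0 members and 0 genes were called with it. Libraries of the same number correlated at -0.10, -0.032, 0.032, -0.094 and 0.084 in their deviations from the group means, so the numbers were not taken to pair them.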

Other observations

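Bok, a BCL2 family gene related to Bax and Bak1 and not among the 10 members, was chosen after its values were seen. It had 740 ± 143 TPM (SD, n = 5) in control clones of run 1 and 620 ± 43.8 TPM (n = 3) in those of run 3, above every member there. In run 2 control clones it was at 291 ± 29.5 TPM (n = 3), below Bax and Bad. It was at 828 ± 43.4 TPM in ATF1-KO (0.18 ± 0.12, log2, SE; limma adjusted p = 0.734), at 330 ± 177 TPM in ATF1/CREB1-KO (0.059 ± 0.36, adjusted p = 0.965) and at 416 ± 76.5 TPM in ATF1/CREB1/CREM-KO (-0.59 ± 0.15, limma adjusted p = 0.0550).

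Among 11 tested rows of p53 and stress regulators, 5 were higher and 6 lower in ATF1/CREB1/CREM-KO. Trp53, Foxo3 and Jun are named here though not called against own-run control clones. Trp53 was at 161 ± 43.4 TPM in ATF1/CREB1/CREM-KO and 226 ± 18.2 TPM in its control clones (-0.53 ± 0.21, limma adjusted p = 0.159). Foxo3 was higher, at 14.6 ± 8.61 TPM against 5.07 ± 0.811 TPM (1.14 ± 0.50, limma adjusted p = 0.199). Jun, a stress-induced transcription factor gene, was at 21.7 ± 5.41 TPM against 41.7 ± 11.8 TPM (-0.91 ± 0.25, limma adjusted p = 0.0703). None of these passed the test, and only Jun did in the limma fit of all libraries with run as a term (adjusted p = 0.0166).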
